A study of Mus musculus with 2 samples.

Results

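The genes described here are 9 listed together as an axis of the sensor NLRP6, interleukin-18 (IL-18) and tumour necrosis factor (TNF): Nlrp6, Il18, Il18bp, Il18r1, Il18rap, Tnf, Tnfrsf1a, Tnfrsf1b and Adam17. They are a list of named genes, chosen with earlier results of these data known, out of 22184 genes that had a probe set of their own, and each was represented by exactly 1 probe set. Their RNA was measured in Ly6C-high inflammatory monocytes that had been sorted out of colon lamina propria. The mice were C57BL/6, either wild type (WT) or Nlrp6-/-. Both genotypes had been given the carcinogen azoxymethane (AOM, 10 mg/kg) and, starting on day 5, 5 days of 2% dextran sodium sulfate (DSS), a polymer toxic to colon epithelium. Cells were taken on day 10. No untreated group is among the arrays, so every level below is one measured after AOM and DSS. The sort kept CD11b+ Ly6C-high cells that lacked CD3 and Ly6G. Each genotype had 1 Affymetrix Mouse Gene 2.1 ST array, and the labels do not give the age or sex of the mice, whether mice were pooled, or which part of Nlrp6 was deleted. With 1 array per genotype the spread between mice is unknown, no difference has an error, and no test was possible.

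NLRP6 is an intracellular sensor of the NOD-like receptor family, known mainly from intestinal epithelium, that can assemble an inflammasome with the adaptor ASC and caspase-1. Caspase-1 cuts the IL-18 precursor into its active form, which binds a receptor of the chains IL18R1 and IL18RAP, while the soluble IL-18 binding protein (Il18bp) captures free IL-18. TNF is made by activated monocytes as a membrane protein, is released by the protease ADAM17, and acts through TNFR1 (Tnfrsf1a), which carries a death domain, and TNFR2 (Tnfrsf1b), which does not. Arrays measure RNA only, so cleavage and shedding of these proteins are outside the measurement.

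Levels are given on the log2 scale of robust multiarray average (RMA) values, on which 1 unit is 2-fold, and differences are always Nlrp6-/- minus WT. A gene counted as measured on an array if it reached that array's detection floor, 3.26 in WT and 3.22 in Nlrp6-/-. The floor was set so that 95% of 1401 olfactory and vomeronasal receptor probe sets, taken as silent in colon monocytes, lay under it. Because probes differ in how well they bind, no gene's level is set against that of another gene.

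Of the 9 genes, 8 were above the floor on both arrays and 1, Nlrp6, was below it on both. Among the 8, Il18 was higher in Nlrp6-/- and the other 7 were lower, with a median difference of -0.23 against 0.00 over the 9528 genes that reached the floor of 1 array or both (called measured genes below). Of these genes 50.7% were higher and 48.3% lower by any amount. At 1.5-fold, 1 of the 8 was higher (Il18) and 1 lower (Adam17), against 6.21% and 3.05% of all measured genes. Of the 8, 0 reached 2-fold, a size that 1.94% of all measured genes reached in either direction (1.62% higher, 0.325% lower).

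**Figure D1:**
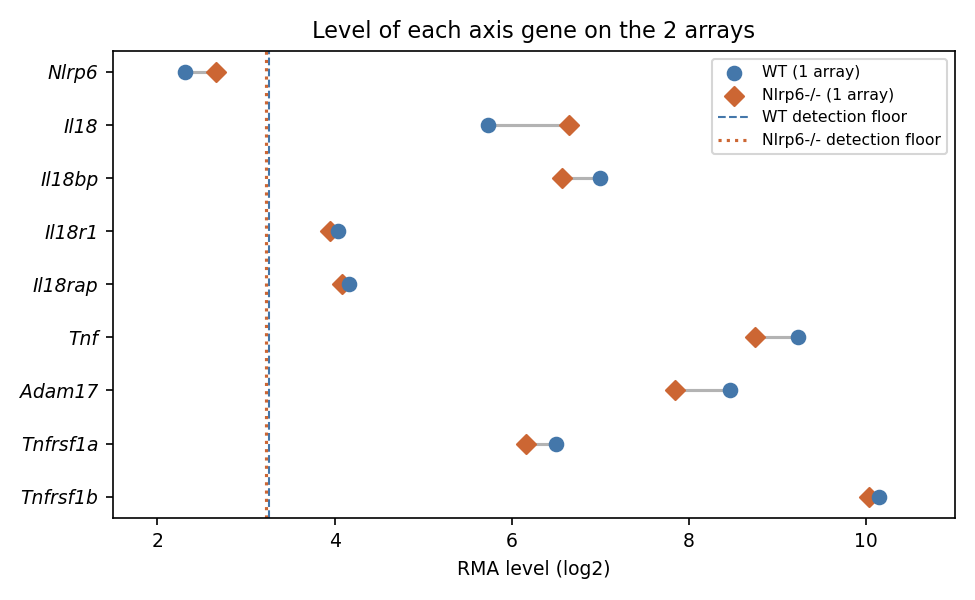
Log2 RMA level (horizontal axis) of each of the 9 genes on the WT array (circles) and the Nlrp6-/- array (diamonds), with the detection floor of each array as a vertical line. Nlrp6 lies left of both floors, Il18 is the measured gene that is higher in Nlrp6-/-, from 5.73 to 6.65, and the other 7 have their Nlrp6-/- point to the left of the WT point.

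The DNA just upstream of Il18, Il18bp and Tnf is shown because these genes are the ligands and the soluble inhibitor of the axis, and because Il18 and Il18bp differed in opposite directions. Each line holds the 250 bases before the annotated transcription start, from RefSeq on build GRCm38.p6, read 5′ to 3′ on the gene's own strand. Capitals mark matches, on either strand, to an interferon response motif (GAAANNGAAA), a STAT motif (TTCNNNGAA), an NF-kB motif (GGGNNNNNCC), an AP-1 motif (TGANTCA) or a TATA box (TATAAA).
Il18 chr9:50554450-50554699 (+ strand): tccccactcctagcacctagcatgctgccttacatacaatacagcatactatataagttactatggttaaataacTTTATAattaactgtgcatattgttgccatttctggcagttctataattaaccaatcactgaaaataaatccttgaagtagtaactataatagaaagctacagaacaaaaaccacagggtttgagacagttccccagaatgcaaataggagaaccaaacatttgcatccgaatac
Il18bp chr7:102018233-102018482 (- strand): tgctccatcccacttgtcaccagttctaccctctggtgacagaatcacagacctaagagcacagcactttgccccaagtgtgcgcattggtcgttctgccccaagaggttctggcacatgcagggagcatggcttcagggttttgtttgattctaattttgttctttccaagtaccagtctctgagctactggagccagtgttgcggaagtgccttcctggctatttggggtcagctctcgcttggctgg
Tnf chr17:35202008-35202257 (- strand): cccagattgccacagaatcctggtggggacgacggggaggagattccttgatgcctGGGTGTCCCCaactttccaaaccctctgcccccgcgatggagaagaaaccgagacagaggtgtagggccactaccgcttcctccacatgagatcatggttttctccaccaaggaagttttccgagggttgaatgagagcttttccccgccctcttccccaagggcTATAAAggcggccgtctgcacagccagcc

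The window of Il18 held a TATA box match on the opposite strand, from base -175, and none of the 4 other motifs. The window of Il18bp held none of the 5. The window of Tnf held TATAAA from base -29 and an NF-kB motif match from base -194, GGGTGTCCCC, which reads as a match on both strands. Windows of the other members are not printed. Among them, Tnfrsf1b held an interferon response match from base -10 and a STAT match from base -181. STAT letters also occurred for Il18r1 and Tnfrsf1a, and the window of Adam17 held 2 NF-kB matches. Of 32851 promoter windows of the same length, 45.8% held the NF-kB letters, 12.4% a TATA box, 7.02% the STAT letters, 6.75% the AP-1 letters and 2.98% the interferon response letters. A match describes letters only, and sites outside these windows were not searched.

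The sorted cells carried the markers of their gate. Ly6c2, the Ly6C gene, had levels of 9.06 (WT) and 9.36 (Nlrp6-/-), and Itgam, which encodes CD11b, was at 8.46 and 8.25. All 11 measured monocyte markers were above both floors, 6 higher and 5 lower, with a median difference of 0.07. At least 1.5-fold higher were 2 of them, F13a1 at 5.38 and 6.44 and Fcgr1 at 7.05 and 7.93, and 0 were as far lower. The T cell gene Cd3e was at 4.21 and 3.98 and the neutrophil gene Ly6g at 3.32 and 3.58, so both gated-out markers were above the floors. Both were below stricter floors of 5.08 in WT and 4.90 in Nlrp6-/-, under which 99% of the silent probe sets lay. Markers of other cells differed by list. The summed linear level of 14 epithelial markers was 317 in WT and 691 in Nlrp6-/-, of 7 B and plasma cell markers 981 and 1667, and of 9 stromal and endothelial markers 663 and 1232. The stromal list went both ways, with 6 markers higher, 3 of them at least 1.5-fold (Mgp, Dcn and Col1a2), 3 lower and a median of 0.24. The sum of 10 neutrophil markers was 499.7 and 504.3, but 5 of them were below both floors and such a sum follows its brightest genes. Of the 5 measured neutrophil markers 3 were higher and 2 lower. Retnlg, below the floor in WT, was at 5.21 in Nlrp6-/-, at least 3.85-fold higher when set against the WT floor, while Mmp8 was at 7.09 and 6.92. Against the stricter WT floor of 5.08 the bound for Retnlg would be far smaller. Both measured dendritic cell markers were lower, with a median of -0.28. All 6 mast cell and basophil markers were below both floors. In bulk RNA, a different share of cells and a different amount of RNA per cell cannot be told apart.

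**Figure D2:**
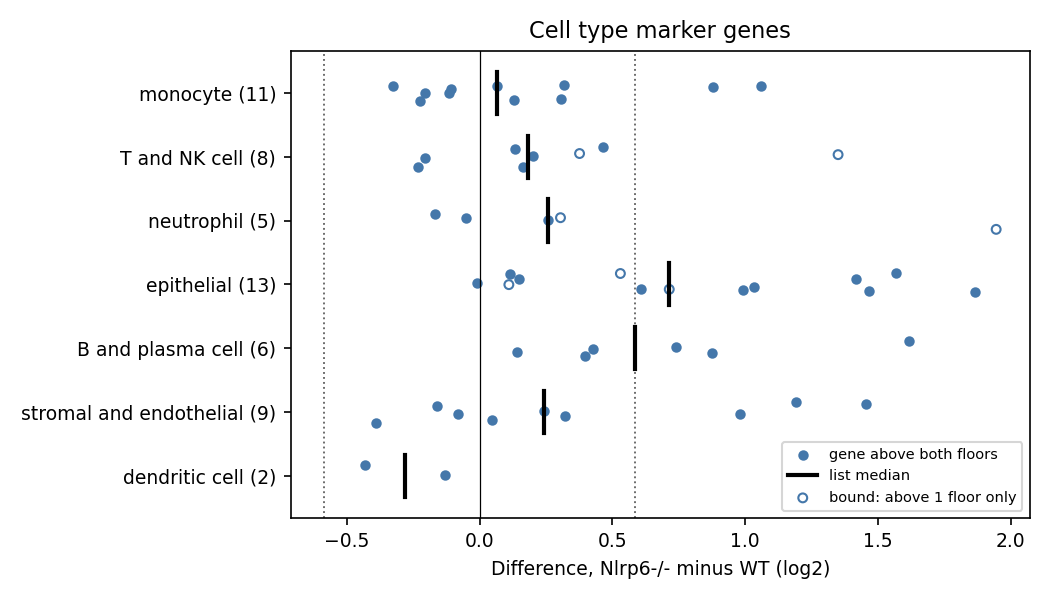
Difference between the arrays in log2 units (horizontal axis) for marker genes of 7 cell types, with the number of measured markers in brackets, black bars for list medians and dotted lines at 1.5-fold. Filled points are above both floors, open points are bounds, and the epithelial list has the highest of the 7 medians, 0.71 against 0.07 for monocyte markers.

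Nlrp6 was at 2.32 in WT and 2.67 in Nlrp6-/-. Both values lie under the floors, by 0.95 and 0.56, so they carry no fold and give no order of the genotypes. The probe set therefore neither supports nor contradicts the genotype labels, and the RNA of the targeted gene was not detectable in WT monocytes on this array. The genes whose products work with NLRP6 were measured: all 6 on the list were above both floors, 3 higher and 3 lower, and 0 of 6 reached 1.5-fold. Pycard, which encodes the adaptor ASC, was at 6.18 in WT and 6.39 in Nlrp6-/-. Casp1 was at 8.35 and 8.74, the largest difference of the list at 0.39. Dhx15, an RNA helicase that presents viral RNA to NLRP6, was at 8.03 and 7.77, and Cyld, a deubiquitinase, was at 6.48 and 6.19.

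The genes that lie beside Nlrp6 on the chromosome were examined, 10 protein-coding genes on each side in the RefSeq order. All 20 had a probe set and 10 of these were measured. Of the 10, 3 were at least 1.5-fold apart, against 9.27% of all measured genes in either direction. Ifitm5 differed by 0.94, from 4.75 in WT to 5.69 in Nlrp6-/-, and Ifitm6 was at 5.57 and 6.42, a difference of 0.85. Both belong to a cluster of interferon-induced transmembrane genes next to Nlrp6. In the same cluster Ifitm1, Ifitm2 and Ifitm3 differed by 0.29, 0.08 and 0.16. Ric8a, a chaperone of G protein subunits on the other side of Nlrp6, was at 4.80 and 4.18, a difference of -0.61. The nearest measured gene, Pgghg, was at 3.57 and 3.58.

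Il18, the ligand, was at 5.73 in WT and 6.65 in Nlrp6-/-, so the array from mice without the sensor showed 1.88-fold more Il18 RNA. It was above the floor by 2.47 in WT and by 3.42 in Nlrp6-/-. A difference as high or higher was found in 200 of the 9528 measured genes (2.10%), and in 2.84% of the 1408 genes whose mean level lay within 0.5 of it. In either direction, the shares that differed by as much or more were 2.61% and 3.76%. The differences of 1391 silent receptor genes had an SD of 0.19. That is spread of dim probe sets between these arrays, not spread between mice, and it sets no scale at the level of Il18. Colon epithelium also makes Il18, and its markers were higher in the same array. Of 13 measured epithelial markers 12 were higher and 8 at least 1.5-fold, among them Lypd8, a secreted epithelial protein, at 5.71 and 7.57, and Epcam, an adhesion molecule, at 4.71 and 5.74, while Krt20 was below both floors and Muc2, the goblet cell mucin, was at 5.41 and 5.52. The part of epithelial RNA in the Il18 difference was not tested.

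Il18bp, the secreted inhibitor, was at 6.99 in WT and 6.56 in Nlrp6-/-, 1.35-fold lower. Of all measured genes 7.63% were as low or lower, and 19.2% differed by as much or more in either direction. The ligand and its inhibitor thus differed in opposite directions, and the ratio of Il18 to Il18bp RNA was 2.54-fold higher on the Nlrp6-/- array than on the WT array. That ratio joins a higher and a lower difference, neither of them 2-fold alone. How often other gene pairs differ by as much was not computed. Il18 and Il18bp are both known to be inducible by interferons, so 10 measured interferon-induced genes are given beside them. Of these, 8 were higher, 7 of them at least 1.5-fold, and 2 were lower, Irf1 at -0.27 and Gbp5 at -0.39. Ifit1, an antiviral protein, was at 6.61 and 8.37, and Cxcl10, a T cell chemokine, was at 8.16 and 9.26. A part of interferon in the Il18 and Il18bp differences was not tested.

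Il18r1, the ligand-binding chain of the IL-18 receptor, was at 4.04 in WT and 3.95 in Nlrp6-/-. Il18rap, the accessory chain, was at 4.16 and 4.08. The differences, -0.08 for each, are within the SD of 0.19 of the silent receptor genes, and 76.7% and 78.2% of all measured genes differed by as much or more in either direction. Both genes sat less than 1 unit above the floors, Il18r1 by 0.77 in WT and 0.73 in Nlrp6-/- and Il18rap by 0.90 and 0.86, and both were below a stricter floor, under which 99% of those silent probe sets lay. IL-18 receptor chains are known from T and NK cells, whose 13 markers had a summed linear level of 174 in WT and 204 in Nlrp6-/-. Of these markers 8 were measured, 6 of them higher and 2 lower, and 5 were below both floors. Only 1 passed 1.5-fold: Gzma, a granule protease of T and NK cells, was at least 2.55-fold higher in Nlrp6-/- when set against the WT floor. Its level of 4.61 in Nlrp6-/- was below the stricter floor. Cd3e was among the lower, at -0.23. The part of T and NK cell RNA in the receptor levels was not tested.

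Downstream of the IL-18 receptor, 11 of 12 signalling genes with a probe set were measured, 5 higher and 6 lower, with a median of -0.06. Myd88, the adaptor that the receptor recruits, differed by 0.53, with 6.65 in WT and 7.18 in Nlrp6-/-. Tollip, which restrains the receptor's kinases, was at 5.02 and 4.38, the 1 gene of the list at least 1.5-fold apart. Upstream, 12 of 13 genes for maturation and release of IL-18 were measured, 8 higher and 4 lower, with a median of 0.17. Casp8, a protease that can also process IL-18, was at 7.17 and 7.73, and Aim2, a sensor of cytosolic DNA, at 5.08 and 5.41. Ninj1, which ruptures the membrane of dying cells, was at 7.43 and 6.59, 1.79-fold lower and the only measured gene of that list past 1.5-fold.

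IL-18 is known to act together with IL-12 and IL-15 on lymphocytes and to bear on the IL-22 system in the colon. All 7 measured genes of that list were higher in Nlrp6-/-, 2 of them at least 1.5-fold, and the median was 0.42. Il15 was at 7.79 in WT and 8.92 in Nlrp6-/-, 2.19-fold higher. Il12a, a chain of IL-12, was at 7.66 and 8.11, and Il23a, a chain of IL-23, was at 4.60 and 5.02. Il22, a cytokine that lymphocytes make and that acts on epithelium, was at 4.90 and 5.82. Its difference of 0.92 was the nearest to that of Il18 among all pathway genes on the lists, with a gap of 0.001, followed by Irf7, an interferon regulatory factor, at 0.78. Likeness over 2 arrays is likeness of a single difference. Ifng, the cytokine that IL-18 is best known to induce, was below both floors, as was Il22ra2, which encodes the IL-22 binding protein.

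**Figure D3:**
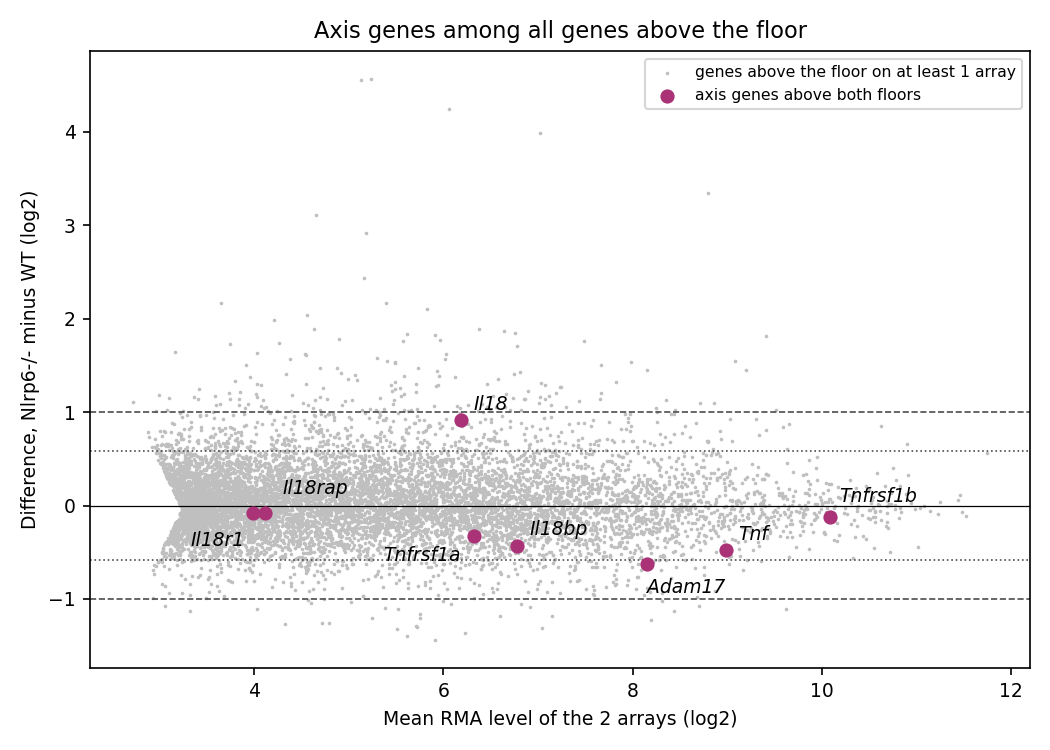
Difference between the arrays (vertical axis, log2) against mean level (horizontal axis, log2) for the 9528 measured genes in grey and the 8 measured axis genes in colour, with dotted lines at 1.5-fold and dashed lines at 2-fold. Il18 stands between the 1.5-fold and 2-fold lines on the high side at 0.91, Adam17 lies just past 1.5-fold on the low side at -0.62, and Il18r1 and Il18rap lie near 0.

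Tnf was at 9.23 in WT and 8.75 in Nlrp6-/-, 1.40-fold lower. A difference as low or lower was found in 5.79% of all measured genes and in 5.69% of the 334 genes whose mean level lay within 0.5 of it. In either direction, the shares that differed by as much or more were 15.2% and 15.3%. Tnf was above the floors by 5.97 and 5.52. The pathway genes with the nearest difference were Rc3h1, which encodes the RNA-binding protein roquin-1, at -0.50, and Mapk14, the p38 kinase, at -0.54. Rc3h1 binds Tnf RNA and promotes its decay. Of the 11 genes that control Tnf RNA, all measured, 4 were higher and 7 lower, none by 1.5-fold, with a median of -0.10.

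Adam17, the protease that releases TNF from the membrane, was at 8.46 in WT and 7.84 in Nlrp6-/-, 1.54-fold lower. It was the lowest difference of the axis, and 2.54% of all measured genes were as low or lower, as were 4.63% of the 626 genes with a mean level within 0.5 of it. In either direction, the shares that differed by as much or more were 8.01% and 10.9%. Ligand and protease were both lower, by amounts that differed by 0.14. Rhbdf2, which encodes the iRhom2 protein that carries ADAM17 to the cell surface in myeloid cells, was at 7.96 and 7.41, a difference of -0.54. Frmd8, which stabilises that complex, was at 4.30 and 4.02, and Pacs2, a sorting protein of ADAM17, at 6.15 and 5.76. Timp3, the tissue inhibitor of ADAM17, differed the other way, at 4.03 and 4.42. Timp3 is also known from stromal cells, of whose 9 markers 6 were higher and 3 lower in the same array, from Mgp, a matrix protein, at 1.45 to Cdh5, the endothelial cadherin, at -0.39. The part of stromal RNA in the Timp3 difference was not tested. Of the 8 measured genes for shedding and turnover of TNF, 5 were lower, 2 higher and 1 without direction at its bound, none by 1.5-fold, and the median was -0.21.

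Tnfrsf1a, the receptor with the death domain, was at 6.49 in WT and 6.16 in Nlrp6-/-, 1.26-fold lower, and 12.7% of all measured genes were as low or lower. Tnfrsf1b was at 10.15 and 10.03, a difference of -0.12, and 32.3% of all measured genes were as low or lower. In either direction, 28.9% of all measured genes differed by as much as Tnfrsf1a or more, and 67.4% by as much as Tnfrsf1b or more. The median absolute difference of all measured genes was 0.20, and the differences were -0.33 for Tnfrsf1a and -0.12 for Tnfrsf1b. The SD of the silent receptor genes describes dim probe sets and sets no scale at these levels.

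Of the genes that act in TNF receptor complexes, 22 of 23 with a probe set were measured, 9 higher and 13 lower, with a median of -0.09. Of these, 3 were at least 1.5-fold lower and 0 higher. Ikbkg, which encodes the regulatory subunit NEMO of the kinase that activates NF-kB, was at 6.17 in WT and 4.85 in Nlrp6-/-, 2.49-fold lower. Tnip1, which restrains NF-kB together with A20, was at 8.79 and 8.13. Otulin, which removes linear ubiquitin chains from the TNF receptor complex, was at 7.95 and 7.29. Among 23 target genes of TNF and NF-kB, all above both floors, 7 were higher and 16 lower, with a median of -0.04. Of the 23, 1 was past 1.5-fold: Il6, an inflammatory cytokine, at 8.13 and 8.90, higher in the array where Tnf was lower. Ccl4, a chemokine, was at 8.62 and 9.18, and Tnfaip2, a TNF-induced gene, at 9.49 and 9.23. The lists share genes with each other, Casp8 and Cyld among them, and their counts are read against 6.21% of all measured genes at least 1.5-fold higher and 3.05% lower.

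**Figure D4:**
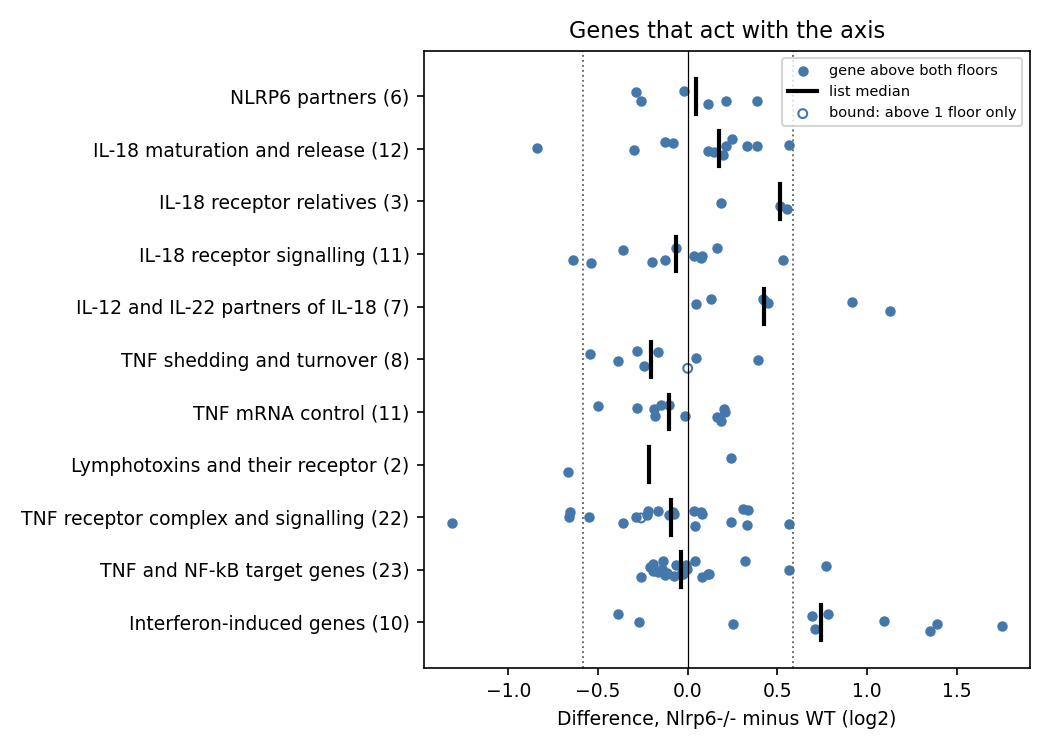
Difference between the arrays in log2 units (horizontal axis) for genes of 11 lists that act with the axis, with the number of measured genes in brackets, black bars for list medians and dotted lines at 1.5-fold. The medians furthest right are those of interferon-induced genes (0.75), IL-18 receptor relatives (0.52, 3 genes) and the IL-12 and IL-22 partners of IL-18 (0.42), the medians of lymphotoxin genes (2 genes) and TNF shedding genes lie furthest left at -0.21 each, and the far left point is Ikbkg at -1.32.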

How the data were processed

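RNA of sorted colon monocytes was measured on 1 array per genotype, grouped by the genotype in the labels. Per the labels' protocols, 10 ng of RNA was amplified and 3.7 µg of cDNA was hybridised for 20 h at 48 °C. The authors deposited log2 levels computed by RMA with the oligo package in R 2.15.1, per the labels' protocols. RMA equalises the distributions of arrays, so a shift of all transcripts cannot be seen. Median levels were 2.87 and 2.84. Depth does not apply to arrays, and their number limits the precision.

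Of 41345 probe sets, 23525 had 1 symbol in the platform annotation, 1810 several and 16010 none. Only single-symbol probe sets were used, the one with the highest mean per gene. All 9 members were named this way, matched a gene in the RefSeq table and had a promoter entry there. The annotation's build is not stated, so coordinates belong to the RefSeq promoters alone. A gene above 1 floor only was given as a bound: its level against the other array's floor or its own value there, whichever was higher.

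The members and the gene lists were chosen with earlier results of these data known. Genes named were the 9 members, up to 4 measured genes per list with the largest differences, list genes 2-fold apart, neighbours of Nlrp6 at least 1.5-fold apart, sort markers, and the 2 list genes nearest to Il18 and to Tnf. Ifng, Il22ra2, Krt20, Muc2, Pgghg, Irf1, Gbp5 and Ifitm1 to Ifitm3 were named after their values were seen. Not every gene that the rule allows is named. Scripts in Python 3.11.15 with pandas 2.3.3 were tested on simulated arrays. Alternatives were other normalizations, probe set rules and floors.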

Additional observations from a re-analysis of the deposited data

How the results depend on the processing

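The 8 measured members kept their direction and stayed within 0.19, the SD of silent receptor differences, in all 46 alternative values. When the median difference (-0.02) or a loess curve (span 0.3) was subtracted, or the columns were quantile-normalized again, Il18 ranged from 0.90 to 0.93, Adam17 from -0.62 to -0.60, Tnf from -0.51 to -0.46 and Il18bp from -0.45 to -0.41. Averaging probe sets could change no member, since each has 1. Another floor could not change the difference of a member that lay above it on both arrays. Subtracting the median moves every gene by the same amount. Many of the 46 values were thus fixed in advance, and only the changes of normalization could move a member. With floors of 5.08 and 4.90, which 99% of the silent probe sets did not reach, Il18r1 and Il18rap had no value and 6 members were measured. The counts of members past 1.5-fold and 2-fold were the same under all alternatives. Over all genes, that floor left 93 at least 2-fold higher instead of 154, 325 at least 1.5-fold higher instead of 592 and 189 lower instead of 291, since 4947 genes were compared, and 15 at least 3-fold higher instead of 29. Of 108 list medians, 7 moved by more than 0.19: without a floor the IL-12 and IL-22 partners had 0.13 and the IL-18 receptor relatives 0.19, and with the stricter floor the stromal markers had 0.61. The sign turned for the lymphotoxin list, from -0.21 to 0.24 with the stricter floor, and for the neutrophil markers, from 0.26 to -0.05 with the stricter floor and -0.02 without a floor. The dendritic cell markers moved from -0.28 to -0.02 when probe sets were averaged. No paired analysis was possible because each genotype has 1 array, and for the same reason no array could be left out.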

Other observations

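Other receptors of the IL-1 family, to which the IL-18 receptor belongs, were higher on the Nlrp6-/- array where measured. Il1r1, the signalling receptor of IL-1, was at 5.60 in WT and 6.12 in Nlrp6-/-, Il1rap, its accessory chain, at 3.46 and 4.01, and Il1r2, a decoy receptor, at 7.65 and 7.84. The 3 measured genes had a median of 0.52, none reached 1.5-fold, and 2 others were below both floors.

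Of the lymphotoxins, ligands that share receptors with TNF or resemble it, Ltb was at 4.28 in WT and 3.61 in Nlrp6-/-, 1.59-fold lower. Lta, which binds both TNF receptors, was below both floors. Ltbr, the receptor of the lymphotoxin heterotrimer, was at 6.09 and 6.33. Lta and Ltb were named with Ltbr as the whole list, Lta after its values were seen.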
